A study of Mus musculus with 4 samples.

Results

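The 40 genes described here are heat shock proteins, chaperones of the endoplasmic reticulum (ER) and genes of the unfolded protein and integrated stress responses. They were taken from the gene tables by symbol, and all 40 listed symbols were among the 13102 genes of the tables. The genes fall into 14 cytosolic and mitochondrial chaperones with their regulators, 15 ER chaperones, stress sensors and sensor targets, and 11 genes of the arm that runs through the transcription factor ATF4. RNA was sequenced from primary epidermal keratinocytes of neonatal C57BL/6 mice, kept in culture for 48 h, with 1 library in each of 4 groups. The groups were wild-type cells without IL-17A (untreated WT), wild-type cells given IL-17A at 100 ng/mL for 8 h (IL-17A WT), and cells lacking Il17rc or Il17rd given the same cytokine at the same dose and time (Il17rc KO and Il17rd KO). How many mice gave cells to each library, their sex and the deleted exons were not given in the sources used here. No untreated knockout library was analysed here, so a difference that the genotype makes without IL-17A and a difference in the response to IL-17A cannot be told apart. With a single library per group no p-value was computed, and every interval below covers counting error only.

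IL-17A is a cytokine of T cells that acts on keratinocytes through the receptor chains IL-17RA and IL-17RC, and IL-17RD is a further member of the same receptor family. The heat shock response is driven by the transcription factor HSF1, which binds inverted repeats of a short motif before the genes of the cytosolic HSP70, HSP90, HSP40 and small heat shock families and raises their transcription when unfolded protein accumulates in the cytosol. In the ER the sensors ATF6, IRE1 (Ern1) and PERK (Eif2ak3) respond to unfolded protein: ATF6 and the IRE1 product XBP1 raise ER chaperones, and PERK slows translation by phosphorylating eIF2, which favours the translation of ATF4. ATF4 is also reached by eIF2 kinases that sense amino acid shortage and other stress, and its targets supply amino acids, charge tRNA and include the death-linked factor CHOP. In epidermis the small heat shock protein Hspb1 is abundant in the differentiating layers, and secretory load and keratinization engage the ER arms.

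The 4 libraries held between 19711866 and 19904695 counts, and the levels below, in CPM, are counts brought to a common library size, with TMM factors of 0.963 to 1.04. Throughout, 4 values in a row stand for the untreated WT library, then IL-17A WT, then Il17rc KO, then Il17rd KO. Counts of Il17rd were 252, 265, 150 and 5, so the library labelled Il17rd KO was close to empty for the targeted gene. Counts of Il17rc were 2729, 1152, 439 and 1718, lowest in the library labelled Il17rc KO but not near 0. The Y-linked gene Ddx3y had 654, 233, 749 and 2 counts, and Xist, expressed from the inactive X chromosome of females, had 2420, 4750, 2668 and 8513. In comparisons with the Il17rd KO library, sex and genotype cannot be told apart. Ddx3y was also 2.87-fold lower in IL-17A WT against untreated WT and 3.14-fold higher in Il17rc KO against IL-17A WT. Xist was 1.92-fold higher and 1.82-fold lower in the same comparisons. In these comparisons too, a difference in sex cannot be told apart from treatment or genotype. All 5 keratinocyte markers were detected, with summed levels of 35719, 25734, 27394 and 29946 CPM, and the differentiation keratin Krt1 was at 2537, 38.6, 618 and 1097 CPM. Of the markers of other cells, 4 of 6 fibroblast genes were in the tables and summed to 34.4, 4.80, 16.4 and 25.9 CPM, 5 of 5 melanocyte genes to 2323, 1524, 1964 and 2125 CPM, 3 of 6 immune genes to 73.6, 37.9, 31.2 and 50.2 CPM, and 2 of 3 endothelial genes to 10.4, 17.6, 7.88 and 10.5 CPM. None of these markers that the tables hold was at 0 in any library, and the part of other cells in the differences below was not tested. In such bulk RNA, fewer cells of a type and less RNA per cell cannot be told apart.

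Promoter windows of 250 bases before to 50 bases after a RefSeq start site (build GRCm38.p6) were found for 34 of the 40 genes and searched on both strands. The heat shock pair searched was GAANNTTC or TTCNNGAA. It was found in 9 of the 15 windows of the cytosolic and mitochondrial genes (8 of 10 genes), in 0 of 13 ER windows, in 3 of 14 ATF4 arm windows and in 15.1% of all 32851 windows. The genes of the first class with a match were Bag3, Dnaja1, Hspa1a, Hspa1b, Hspb1, Hspd1, Hspe1 and Hsph1, and the match of Bag3 lies after its start site. Below are the 150 bases before the start of the inducible HSP70 gene Hspa1b, shown because it was among the genes called below, and a cluster of matches before the start of Hspe1, a stretch that also lies in a window of Hspd1. Capitals mark the fixed bases of each match. The Hspa1b stretch is at chr17:34959239-34959388 on the minus strand, outside annotated genes. The Hspe1 stretch is at chr1:55088055-55088080 on the plus strand, inside an exon of Hspd1 on the other strand, and holds 3 overlapping matches.
Hspa1b: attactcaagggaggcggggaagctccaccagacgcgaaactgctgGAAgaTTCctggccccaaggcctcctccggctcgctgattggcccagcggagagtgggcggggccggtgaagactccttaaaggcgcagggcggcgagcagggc
Hspe1: tccgTTCtaGAAccTTCcgGAAggcc
The matching 150 bases of Hspa1a were identical at 149 positions (99.3%), so the paired genes share this promoter stretch as well as their transcript.

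The ER stress response element, CCAAT and CCACG separated by 9 bases, was found in 39 of all 32851 windows (0.119%). It was in 6 of 13 ER windows and in none of the windows of the other classes. The 6 genes were Hspa5, Calr, Hsp90b1, Canx, Pdia6 and Dnajc3, and Hsp90b1 held it at 2 places. The stretches, in gene orientation with both parts in capitals, are at chr2:34772020-34772048 (plus strand, in an annotated Hspa5 exon), chr8:84847070-84847098 (minus), chr10:86705633-86705661 and chr10:86705528-86705556 (both minus), chr11:50325795-50325823 (minus), chr12:17266486-17266514 (plus) and chr14:118937822-118937850 (plus), the last 6 outside annotated genes. They are shown because the ER genes were the most even class across the libraries.
Hspa5: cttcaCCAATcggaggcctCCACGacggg
Calr: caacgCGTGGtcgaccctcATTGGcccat
Hsp90b1, distal: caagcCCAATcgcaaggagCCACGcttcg
Hsp90b1, proximal: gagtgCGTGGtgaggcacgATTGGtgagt
Canx: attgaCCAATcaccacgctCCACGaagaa
Pdia6: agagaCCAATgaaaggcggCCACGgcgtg
Dnajc3: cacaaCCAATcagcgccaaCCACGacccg
The short motif CCACG, which is part of the longer element, was in 11 of 13 ER windows, in that of Pdia4 only after the start site. It was also in 9 of 15 cytosolic and mitochondrial windows, in 8 of 14 ATF4 arm windows and in 32.8% of all windows. The unfolded protein response element TGACGTGG was in none of the members' windows and in 0.676% of all windows.

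The CEBP-ATF response element, searched as TGATGCAA or TGATGAAA, was in 3 of 14 ATF4 arm windows (Chac1, Asns and Vldlr), in 1 of 13 ER windows (Herpud1), in 0 of 15 windows of the first class and in 1.90% of all windows. The 3 ATF4 arm genes are shown with Herpud1 because Chac1 and Vldlr were among the genes that differed most in the knockout libraries. The stretches are at chr2:119351039-119351066 (plus strand, outside annotated genes), chr6:7693215-7693242 (minus, in an annotated Asns exon), chr19:27216810-27216837 (plus, in an annotated Vldlr exon, upstream of a later start site) and chr8:94386307-94386334 (plus, inside the antisense gene Gm15890). Capitals mark the match in either orientation.
Chac1: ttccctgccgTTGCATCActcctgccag
Asns: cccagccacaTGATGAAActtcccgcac
Vldlr: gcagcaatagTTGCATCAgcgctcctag
Herpud1: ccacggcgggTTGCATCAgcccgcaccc
In the Asns window a heat shock pair match begins inside the CEBP-ATF match. All matches are descriptions of letters in these windows.

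A gene was called higher or lower between a pair of libraries when the log2 ratio was at least 1 in size and 1 lay outside the exact 95% interval of the counts' ratio. Few of the 40 genes passed. In IL-17A WT against untreated WT, 1 gene was higher (Hsp90aa1), where 8.69% of all 12934 genes tested were higher, and 3 were lower (Hspa1a, Hspa1b and Vldlr), where 10.5% of all genes were lower. In Il17rc KO against IL-17A WT, 3 genes were higher (Vldlr, Chac1 and Trib3) beside 6.02% of all genes, and none was lower beside 4.68%. In Il17rd KO against IL-17A WT, Vldlr alone was higher beside 6.04% of all genes, and none was lower beside 3.60%. Between the knockouts, none of the 40 was called in Il17rc KO against Il17rd KO, where 1.41% of all genes were higher and 2.51% lower. The member shares were 2.5% higher and 7.5% lower in the first comparison, 7.5% higher in the second and 2.5% higher in the third, so that the share of higher members was above the background only in the second, by a small margin, and there all 3 calls came from the ATF4 arm. That margin rests on the scaling: with DESeq2 size factors or upper-quartile factors 2 genes were called there, without Trib3. With both directions together, the 3 of 40 genes stand beside 10.69% of all genes. The IL-17A WT library enters 3 of these comparisons, which are therefore not independent.

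**Figure D1:**
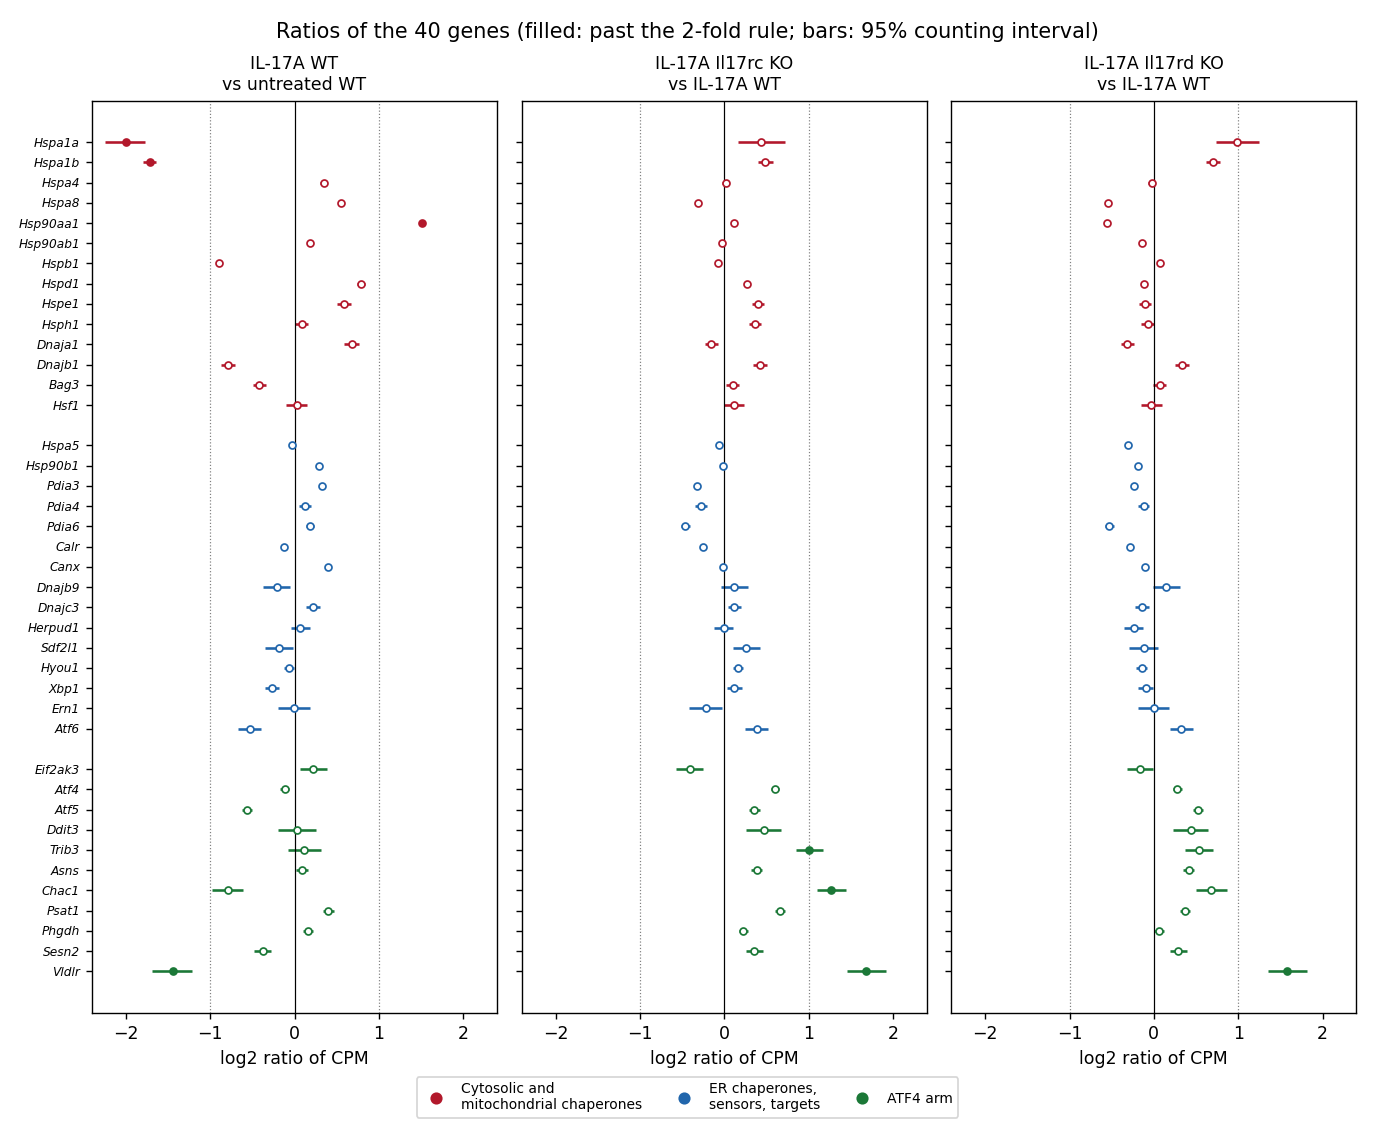
Log2 ratios of CPM for the 40 genes (vertical axis) in 3 comparisons of single libraries, coloured by class, with bars for the 95% counting interval and filled points for genes past the 2-fold rule (dotted lines at -1 and 1). Hspa1a, Hspa1b (-1.72), Vldlr (-1.44) and Hsp90aa1 (1.51) lie past the lines in the left panel, the 15 ER genes stay inside them in every panel, and most ATF4 arm genes lie right of 0 in both knockout panels.

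All 40 genes passed the minimum mean of 1 CPM. The highest library was at least 2 times the lowest for 8 of the 40 genes (20%), against 3598 of 12934 genes (27.8%). Those 8 were Hspa1a, Hspa1b, Hsp90aa1 and Hspd1 among the cytosolic and mitochondrial genes and Vldlr, Chac1, Trib3 and Psat1 in the ATF4 arm. The median ratio of highest to lowest library was 1.67 in the first class, 1.26 in the ER class and 1.48 in the ATF4 arm, and 1.54 over all genes tested.

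The inducible HSP70 genes were lower after IL-17A in wild-type cells. Hspa1b (chr17:34956436-34959238, minus strand), which encodes the stress-inducible HSP70 chaperone, was at 316, 96.0, 135 and 156 CPM, 3.30-fold lower in IL-17A WT against untreated WT (95% counting interval 3.13 to 3.47). Hspa1a (chr17:34969190-34972156, minus strand), the neighbouring gene for nearly the same protein, was at 38.1, 9.45, 12.8 and 18.8 CPM, 4.03-fold lower (3.42 to 4.76). Both genes were highest in untreated WT and lowest in IL-17A WT, with the Il17rd KO library above the Il17rc KO library. Krt1 and the summed keratinocyte, fibroblast and melanocyte markers, given above, had the same order of libraries, while the immune and endothelial sums did not. The part of differentiation and of other cells in the Hspa1a and Hspa1b values was not tested. Against IL-17A WT the log2 ratios of Hspa1b were 0.49 in Il17rc KO and 0.70 in Il17rd KO, and those of Hspa1a 0.44 and 0.98, the last just short of the 2-fold rule. The transcripts of the pair match at 99.23% over 2201 bases, so their reads cannot be assigned with certainty. Their summed counts, an alternative chosen after the data were seen, were 6795, 2063, 2959 and 3585, which is 3.36-fold lower in IL-17A WT against untreated WT (3.20 to 3.53).

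The constitutive partner did not pass the rule in any of the comparisons. Hspa8, the always-present HSC70, was at 1937, 2834, 2287 and 1944 CPM, highest in IL-17A WT and almost level between untreated WT and Il17rd KO. Its log2 ratios were 0.55 in IL-17A WT against untreated WT, and -0.31 and -0.54 in Il17rc KO and Il17rd KO against IL-17A WT. Per length, on the FPKM scale of the tables, Hspa1b stood at 25.1%, 5.20%, 9.04% and 12.3% of Hspa8. The exchange factors of HSP70 varied less: Hspa4 was at 409, 519.5, 525 and 509.6 CPM, and Hsph1, an HSP110 protein, was at 130.0, 138, 178 and 131 CPM. Hspa4 was lowest in untreated WT with the 3 treated libraries close together, while Hsph1 was highest in Il17rc KO.

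The HSP90 genes separated into a variable and an even one. Hsp90aa1 (chr12:110690605-110702728, minus strand), the inducible alpha form, was at 501, 1429, 1549 and 975 CPM, 2.85-fold higher in IL-17A WT against untreated WT (2.79 to 2.92). It was lowest in untreated WT, highest in Il17rc KO, and in Il17rd KO lay between untreated WT and the other treated libraries. The log2 ratio to IL-17A WT was 0.12 in Il17rc KO and -0.55 in Il17rd KO, and that between Il17rc KO and Il17rd KO was 0.67, the largest of any of the 40 genes in that comparison. Hsp90ab1, the constitutive beta form, was at 2337, 2658, 2607 and 2411 CPM. Per length, Hsp90aa1 stood at 16.3%, 41.0%, 45.3% and 30.9% of Hsp90ab1 on the FPKM scale, so the beta form remained the more abundant in every library.

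**Figure D2:**
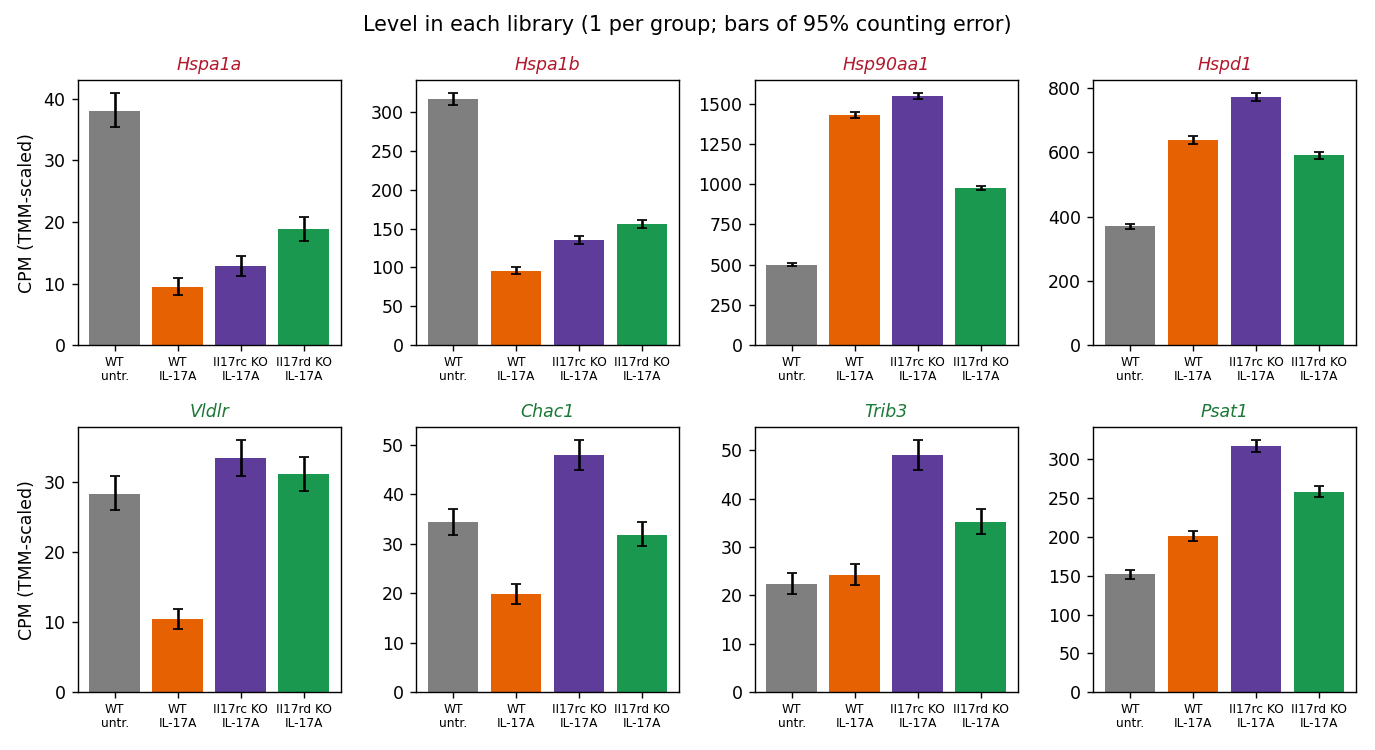
Levels of 8 genes in TMM-scaled CPM (vertical axes start at 0), 1 bar per library with its 95% Poisson counting interval, for the 8 genes whose highest library was at least 2 times the lowest. Hspa1a, Hspa1b and Vldlr are lowest in IL-17A WT (9.45, 96.0 and 10.4 CPM), while Hsp90aa1, Hspd1, Trib3 and Psat1 are lowest in untreated WT.

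The mitochondrial pair passed the rule in none of the 4 comparisons, and untreated WT was its lowest library. Hspd1, the matrix chaperonin HSP60, was at 369.7, 638, 772 and 590.3 CPM. Hspe1, its lid HSP10, was at 97.3, 146, 193 and 136 CPM. Both genes had the order untreated WT, Il17rd KO, IL-17A WT, Il17rc KO from low to high. The log2 ratios in IL-17A WT against untreated WT were 0.79 for Hspd1 and 0.58 for Hspe1, and those in Il17rc KO against IL-17A WT were 0.27 and 0.40. The genes overlap head to head on opposite strands, and no source used here gives the strand setting of the counting, so reads of the overlap may be shared.

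Small heat shock and J-domain genes differed in direction. Hspb1, a small heat shock protein that holds unfolded protein, was at 4264, 2295, 2173 and 2410.0 CPM, and per length it had the highest FPKM of the 40 genes in every library. It was highest in untreated WT, with a log2 ratio of -0.89 in IL-17A WT and ratios of -0.08 and 0.07 in Il17rc KO and Il17rd KO against IL-17A WT. Krt1, the differentiation keratin given above, was also highest in untreated WT. Unlike Hspb1, Krt1 was 16.0-fold higher in Il17rc KO and 28.4-fold higher in Il17rd KO than in IL-17A WT. The part of differentiation in the Hspb1 values was not tested.

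Dnajb1, a heat-inducible J-domain partner of HSP70, was at 184, 106, 143 and 134 CPM, highest in untreated WT and lowest in IL-17A WT. Dnaja1, a constitutive J-domain partner, was at 87.5, 140.2, 126 and 113 CPM, the opposite order for those 2 libraries. Bag3, an HSP70 exchange factor that directs clients to autophagy, was at 169.8, 127, 136 and 134 CPM. Hsf1, the transcription factor of the heat shock response, was at 51.8, 52.7, 57.1 and 51.6 CPM, the smallest spread of the 40 genes, although its activity is set by binding and modification that RNA levels do not show. Over the 14 genes the median log2 ratio was 0.13 in IL-17A WT against untreated WT, 0.12 in Il17rc KO and -0.05 in Il17rd KO against IL-17A WT, beside 0.004, 0.04 and 0.01 over all genes. The last median was 0.03 under library totals, so its sign rests on the scaling.

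Of the 40 genes, 9 had another annotated gene that matched a transcript at 95% identity or more over at least 200 bases and 50% of the shorter transcript. These were Hspa1a, Hspa1b, Hspa8, Hspb1, Hspd1, Hspe1, Hsp90aa1 and Dnaja1 of the first class and Phgdh of the ATF4 arm, and no ER gene. Hspa8 had 8 such copies, 7 of them pseudogenes, and Phgdh had 13, all pseudogenes. The copies in the tables carried unequal shares of reads. Hspa1b, the copy of Hspa1a, had more counts than Hspa1a in every library. Gm20481 overlaps Hspa1a on the opposite strand and matches Hspa1b at 97.61% over 335 bases. Without a known strand setting, its part in the counts of the pair is unknown. The Dnaja1 copy Gm15542 had 213, 357, 278 and 271 counts beside 1677, 2743, 2526 and 2315 of Dnaja1. The Hsp90aa1 copy Gm12346 had 20, 33, 36 and 21 counts beside 9601, 27958, 31054 and 20035 of Hsp90aa1, a small share. The copy Hspd1-ps3 had 395, 591, 761 and 587 counts beside 7087, 12492, 15480 and 12124 of Hspd1, and so had the same order of libraries. Values of these 9 genes are uncertain to the extent that reads were split between copies, and no source used here says how reads that map to several places were counted. Of the 4 genes called in IL-17A WT against untreated WT, Hspa1a, Hspa1b and Hsp90aa1 are among the 9. Leaving the 9 out therefore keeps only the call of Vldlr, whatever the copies contribute. With the counts of Gm12346 added, Hsp90aa1 was 2.85-fold higher in that comparison (2.78 to 2.92). The summed counts of Hspa1a and Hspa1b, given above, also stayed past the rule.

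No ER gene was called in any comparison, and each of the 15 had a highest library under 1.5 times its lowest. Hspa5, the HSP70 of the ER known as BiP, was at 870.0, 851, 813 and 689 CPM. It was lowest in Il17rd KO, with log2 ratios of -0.03 in IL-17A WT against untreated WT and -0.31 in Il17rd KO against IL-17A WT. Hsp90b1, the HSP90 of the ER, was at 546, 669, 661 and 589 CPM. Hyou1, which exchanges nucleotide on BiP, was at 231, 221, 248 and 199.7 CPM. Hsp90b1 was lowest in untreated WT and Hyou1 in Il17rd KO.

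Oxidoreductases and lectin chaperones differed little between the libraries. Pdia6, a protein disulfide isomerase, was at 314, 357, 259 and 247 CPM, below both wild-type libraries in both knockout libraries, although the log2 ratios to IL-17A WT of -0.46 and -0.53 did not pass the rule. Pdia3, the isomerase that works with the lectin chaperones, was at 744, 932, 743 and 789.6 CPM, highest in IL-17A WT. Pdia4 was at 182, 198, 164 and 183 CPM. Calr, the soluble lectin chaperone of glycoproteins, was at 1270.0, 1169, 981 and 962 CPM, and its membrane-bound relative Canx at 561, 737, 732 and 684 CPM. The FPKM of Calr was 3.69 times that of Canx in untreated WT and 2.58, 2.18 and 2.29 times in the treated libraries.

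J-domain proteins, degradation factors and sensors of the ER had the same narrow spread. Dnajc3, a J-domain co-chaperone of BiP, was at 108, 126, 137 and 115 CPM, and Dnajb9, a J-domain protein that holds IRE1 inactive, had 711, 626, 698 and 729 counts. Sdf2l1, a BiP-cycle component, was at 32.2, 28.3, 34.0 and 26.0 CPM. Herpud1, a part of the ER degradation machinery that is induced by all arms, was at 64.8, 68.1, 67.7 and 57.6 CPM. The largest log2 ratio of these 4 in size was 0.39, for Sdf2l1 in Il17rc KO against Il17rd KO.

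Xbp1, whose mRNA is spliced by IRE1, was at 122, 101, 110.0 and 94.7 CPM, and the splicing itself is not seen in gene counts. Ern1, the gene of IRE1, was at 23.7, 23.6, 20.2 and 23.5 CPM. Atf6, the sensor that is cleaved into a transcription factor, was at 55.9, 38.7, 50.7 and 48.6 CPM and had the widest spread of the class, lowest in IL-17A WT with a log2 ratio of -0.53 to untreated WT. The median log2 ratio over the 15 genes was -0.01 in IL-17A WT against untreated WT, -0.01 in Il17rc KO and -0.14 in Il17rd KO against IL-17A WT. In Il17rd KO against IL-17A WT, 13 of the 15 ratios were below 0, beside 6301 of 12934 genes. Of the 15, 11 had a counting interval below 1, beside 3633 of 12934 genes. Counting intervals narrow with depth, so these interval counts are not a like comparison between genes of different counts. The median size of the log2 ratio there was 0.15 in the class and 0.24 over all genes. The class medians near 0 took the other sign under library totals (0.02 and 0.03), the first also under upper-quartile factors (0.04), while that in Il17rd KO was -0.05 under library totals.

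The ATF4 arm held all 3 calls in Il17rc KO against IL-17A WT. Its median log2 ratio was 0.03 in IL-17A WT against untreated WT, 0.47 in Il17rc KO against IL-17A WT and 0.41 in Il17rd KO against IL-17A WT. In each of the knockout comparisons 10 of the 11 ratios were above 0, beside 7056 and 6633 of 12934 genes, and Eif2ak3 was the exception. All 10 had a counting interval above 1, beside 4397 and 3900 of 12934 genes. Counting intervals narrow with depth, so these interval counts are not a like comparison between genes of different counts. The knockout comparisons share the IL-17A WT library, so a value of 1 library enters both. Under 3 other scalings the medians ranged from 0.40 to 0.51 in Il17rc KO and from 0.39 to 0.49 in Il17rd KO.

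Vldlr (chr19:27216484-27254231, plus strand), the receptor of very low density lipoprotein and an ATF4 target in stressed cells, was at 28.3, 10.4, 33.4 and 31.1 CPM. It was low in IL-17A WT alone, 2.73-fold lower against untreated WT (2.32 to 3.22), and 3.22-fold higher in Il17rc KO (2.74 to 3.78) and 2.99-fold higher in Il17rd KO (2.55 to 3.52) than in IL-17A WT. The 3 other libraries lay within log2 ratios of 0.24 of each other. The summed fibroblast markers and Krt1, given above, were also lowest in IL-17A WT, and their part in the Vldlr values was not tested.

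Chac1 (chr2:119351229-119354381, plus strand), an enzyme that breaks down glutathione, was at 34.4, 19.8, 47.9 and 31.8 CPM, lowest in IL-17A WT and highest in Il17rc KO. It was 2.41-fold higher in Il17rc KO than in IL-17A WT (2.14 to 2.72), with log2 ratios of 0.68 in Il17rd KO against IL-17A WT and -0.79 in IL-17A WT against untreated WT. Trib3 (chr2:152337422-152344032, minus strand), a pseudokinase that feeds back on ATF4 and CHOP, was at 22.4, 24.3, 49.0 and 35.2 CPM. The wild-type libraries were level and both knockout libraries above them, with Il17rc KO 2.02-fold higher than IL-17A WT (1.81 to 2.26). That call rests on the scaling: the log2 ratio was 1.01 here, 0.99 with DESeq2 size factors and 0.94 with upper-quartile factors.

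Atf4 itself was at 288, 265, 403 and 321 CPM, with log2 ratios to IL-17A WT of 0.60 in Il17rc KO and 0.28 in Il17rd KO. ATF4 protein is set mainly by translation, which these counts do not measure. Atf5, a related factor translated under eIF2 phosphorylation, was at 274, 185, 237 and 267 CPM, lowest in IL-17A WT. Ddit3, the gene of CHOP, had 319, 332, 471 and 472 counts, with the wild-type libraries level and the knockout libraries level above them. Ddit3 overlaps Mars on the opposite strand, and Atf5 overlaps Nup62, so without a known strand setting some of their reads may belong to the partner.

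The serine and asparagine enzymes had their lowest level in untreated WT. Psat1, which makes phosphoserine, was at 152, 201, 317 and 259 CPM, with log2 ratios of 0.40, 0.66 and 0.37 in the first 3 comparisons. Phgdh, the first enzyme of serine synthesis, was at 227, 253, 297 and 264 CPM. Asns, asparagine synthetase, was at 166, 176, 229.8 and 234 CPM, with both wild-type libraries below both knockout libraries.

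Sesn2, a stress-induced inhibitor of mTORC1, was at 93.8, 72.4, 92.6 and 88.6 CPM, lowest in IL-17A WT. Eif2ak3, the gene of the sensor PERK, was at 32.4, 37.9, 28.6 and 33.8 CPM, the only gene of the arm that was lowest in Il17rc KO. Of the 11 genes, 7 were highest in Il17rc KO, 5 were lowest in IL-17A WT and 5 were lowest in untreated WT. As a share of all counts, the 11 genes made up 0.129%, 0.124%, 0.178% and 0.166%, with exact 95% binomial (Clopper-Pearson) intervals of 0.127% to 0.130% in untreated WT and 0.176% to 0.180% in Il17rc KO.

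Each knockout library was also set beside untreated WT. The log2 ratios of Hspa1b to untreated WT were -1.23 in Il17rc KO and -1.02 in Il17rd KO, those of Hsp90aa1 1.63 and 0.96, and those of Vldlr 0.24 and 0.13. Psat1 stood at 1.06 and 0.77, Trib3 at 1.13 and 0.65, and Hspd1 at 1.06 and 0.68. Over the 11 ATF4 arm genes the medians were 0.47 and 0.16, with 8 ratios above 0 and 3 below 0 in each. Among these genes, Chac1 stood at 0.48 and -0.11 and Atf5 at -0.21 and -0.04. Hspb1 stood at -0.97 and -0.82, near its value of -0.89 in IL-17A WT. Vldlr was near its untreated level in both knockout libraries, unlike Hspb1 and Hspa1b.

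Per length Hspb1 lay above 99.97% of all genes in untreated WT and Hsp90ab1 above 99.7%. The median FPKM over the 4 libraries was 2278 for Hspb1, 835 for Hsp90ab1, 491 for Hspa8 and 373 for Calr, and the medians over the classes were 72.7 for the cytosolic and mitochondrial genes, 32.5 for the ER genes and 26.0 for the ATF4 arm. The lowest class members were Hspa1a at 3.18 to 12.8 FPKM, Ern1 at 2.47 to 2.90 FPKM and Vldlr at 1.03 to 3.31 FPKM. Together the 40 genes took 1.67%, 1.77%, 1.79% and 1.67% of all counts. The ER class took 0.497%, 0.546%, 0.512% and 0.494%, highest in IL-17A WT.

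**Figure D3:**
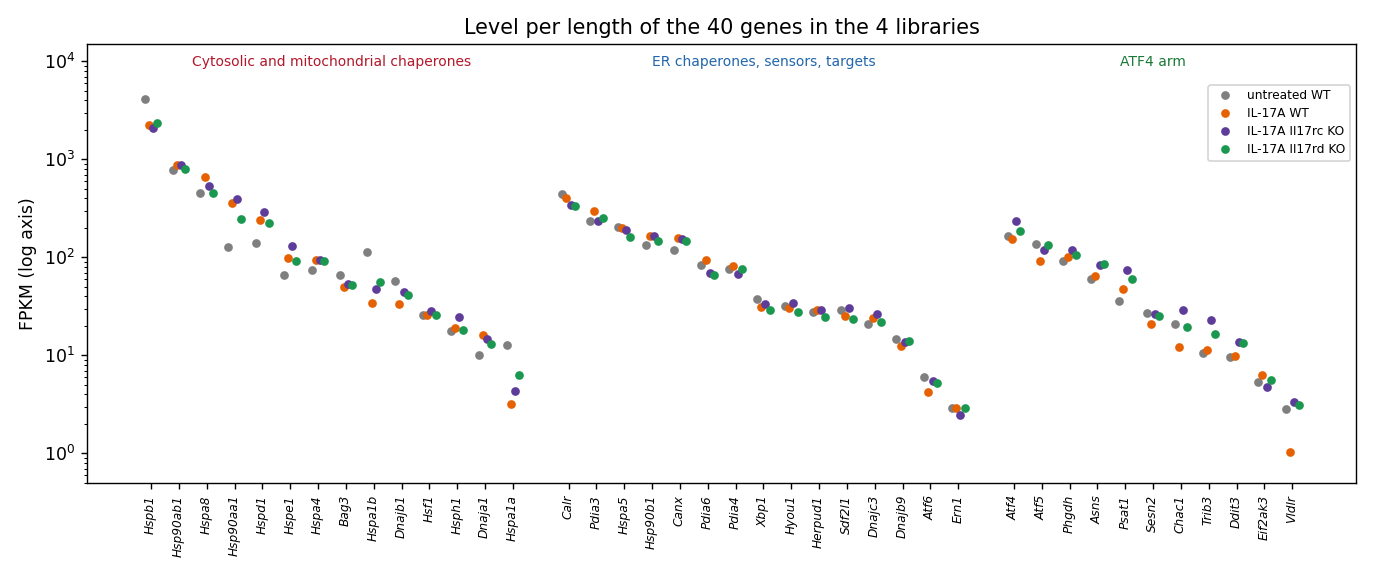
FPKM of the 40 genes on a log axis, 1 point per library, ordered within each class by the median over the libraries. The points of most ER genes overlap, Hspa1b spans 34.2 to 113 FPKM, and Vldlr in IL-17A WT is the lowest point at 1.03 FPKM.

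Other genes of these pathways were read from 4 lists, with the up to 3 genes of each named that had the largest called ratio. The shares of all genes called in the first 3 comparisons, given above, are the background of these counts. Among 30 cytosolic co-chaperones and subunits of the chaperonin TRiC, 1 was lower and 0 higher in the first comparison, and 1 was higher and 0 lower in each knockout against IL-17A WT. Each of these is 3.33% of the list, below the share of all genes. In all 3 it was Hspb8, a small heat shock protein that works with Bag3, at 156, 37.6, 136 and 104 CPM. It was low in IL-17A WT alone, 4.14-fold lower against untreated WT (3.82 to 4.49) and 3.63-fold higher in Il17rc KO than in IL-17A WT (3.34 to 3.94), while the log2 ratio of Bag3 was -0.42 and 0.10 in the same comparisons.

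Among 27 of 30 listed genes of ER folding, export and degradation that the tables hold, 2 were called higher and 0 lower in the first comparison, and none in either knockout against IL-17A WT. The 2 genes are 7.41% of those measured, beside 8.69% of all genes. Pdia5, a disulfide isomerase that acts on ATF6, was at 5.01, 14.9, 7.48 and 9.01 CPM, 2.98-fold higher in IL-17A WT against untreated WT (2.36 to 3.79). Ssr1, a subunit of the translocon-associated complex, was at 120.0, 262, 262 and 213 CPM, 2.19-fold higher (2.08 to 2.30). Both were lowest in untreated WT, and the log2 ratios of Pdia5 in Il17rc KO and Il17rd KO against IL-17A WT were -0.99 and -0.72, short of the rule.

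Among 28 genes of amino acid supply and tRNA charging, 2 were called higher and 4 lower in the first comparison, and 3 higher and 0 lower in each knockout against IL-17A WT. These are 7.14% and 14.3% of the list in the first comparison, beside 8.69% and 10.5% of all genes, and 10.7% in each knockout comparison, beside 6.02% and 6.04%. The median log2 ratios were -0.03, 0.45 and 0.28 in the 3 comparisons. Slc6a9, a glycine transporter, was at 22.1, 6.39, 21.1 and 20.4 CPM, low in IL-17A WT alone and 3.46-fold lower there against untreated WT (2.83 to 4.26). Slc1a4, a neutral amino acid transporter, was at 74.2, 30.1, 60.5 and 57.0 CPM, with the same order. Cth, which makes cysteine, was at 8.87, 25.2, 24.0 and 18.6 CPM, low in untreated WT alone.

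Among 15 of 16 listed stress kinases, eIF2 feedback genes and ATF4-linked regulators, 0 were called higher and 3 lower in the first comparison, and 3 higher and 0 lower in each knockout against IL-17A WT. Each count of 3 is 20% of the list, beside 10.5%, 6.02% and 6.04% of all genes. The median log2 ratios were -0.16, 0.27 and 0.38. Against untreated WT the medians were -0.06 in Il17rc KO and 0.06 in Il17rd KO. Stc2, a secreted glycoprotein induced by PERK signalling, had 129, 116, 579 and 350 counts, 4.87-fold higher in Il17rc KO than in IL-17A WT (3.98 to 6.00) and 2.87-fold higher in Il17rd KO (2.32 to 3.58). Atf3, a stress-induced factor downstream of ATF4, was at 10.4, 11.4, 32.9 and 18.4 CPM, 2.88-fold higher in Il17rc KO than in IL-17A WT (2.47 to 3.36). Both were level between the wild-type libraries, and highest in Il17rc KO, as was Trib3. Bbc3, the death gene PUMA, was at 23.3, 6.08, 9.13 and 16.4 CPM, lowest in IL-17A WT.

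**Figure D4:**
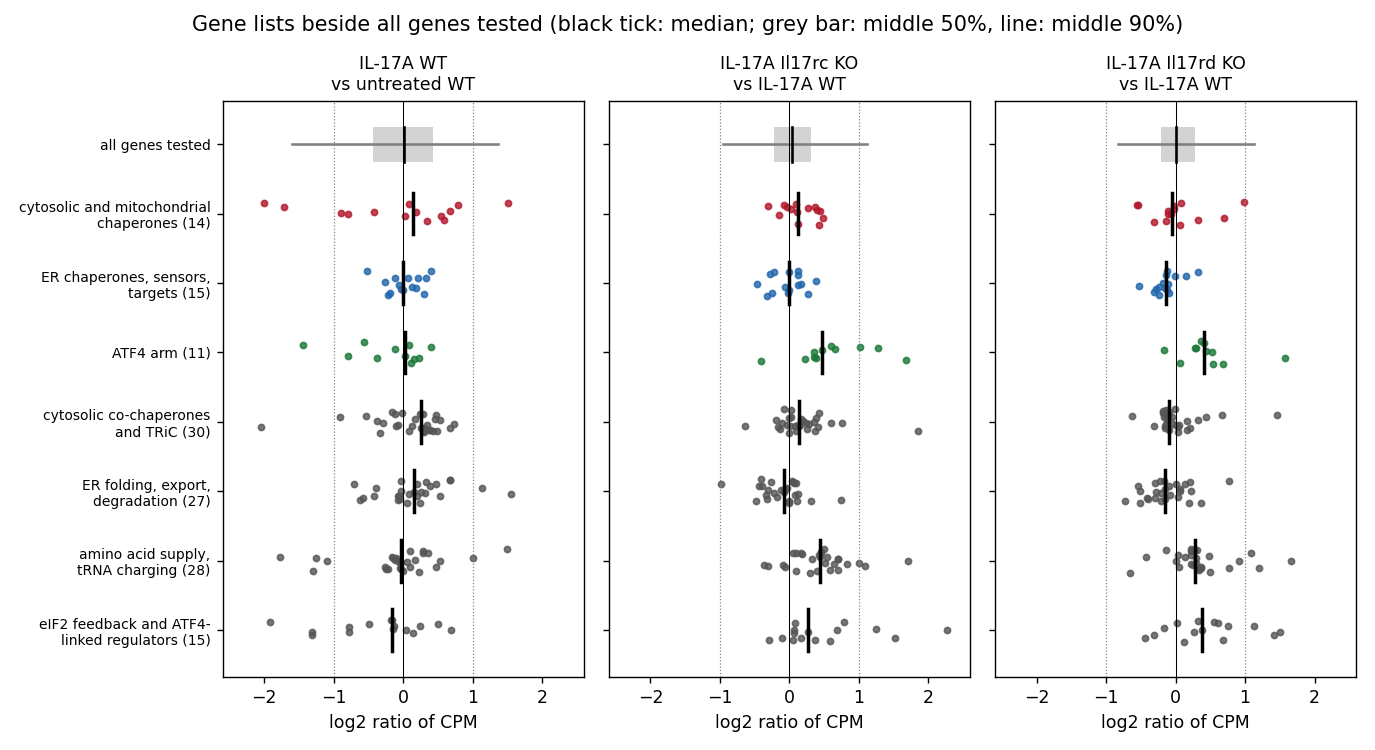
Log2 ratios of CPM in 3 comparisons for the 3 classes of the 40 genes (coloured) and 4 further lists (grey), 1 point per gene, with a black tick at each median and the spread of all 12934 genes on the top row. The ATF4 arm (medians 0.47 and 0.41) and the amino acid list (0.45 and 0.28) lie right of the all-gene medians in the knockout panels.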

How the data were processed

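Each library has a table from the authors that lists whole-number counts per gene without normalization, as deposited. The FPKM values deposited by the authors are per gene length; they served only for levels between genes, and their library sizes equal library totals times the TMM factors computed here. Trim Galore 0.4.4, HISAT2, featureCounts of Subread and edgeR are named with build mm10, per the submitters' processing notes. Annotation, strand and multi-mapping settings were not given.

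Counts were scaled by TMM (edgeR 4.0.16) over the 4 libraries. Log2 ratios used a prior count of 2, and 12934 of 13102 genes, those averaging 1 CPM or more, were tested. Ratio intervals are exact 95% Clopper-Pearson intervals conditional on the summed count, and levels have exact Poisson intervals. They treat reads as independent molecules, which reads without molecular identifiers are not. The rule of size was checked on simulated counts with counting error only and planted changes larger than 2-fold. That check cannot speak to variation between cultures or to calls near the rule. Copies were found with BLAST+ 2.17.0 among GENCODE M21 transcripts, which also gave gene coordinates (GRCm38). The alternatives were DESeq2 1.42.0 size factors, library totals, upper-quartile factors, other minimums, folds and prior counts, and omission of genes with copies.

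Named were all 40 members, Il17rc and Il17rd, the copies and overlapping genes of members, and up to 3 called genes of each further list with the largest log2 ratio. Ddx3y, Xist and Krt1 were singled out with their values known. The members and lists were chosen with earlier results of these data known.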

Additional observations from a re-analysis of the deposited data

How the results depend on the processing

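The count of genes called among the 40 depended on the fold required. In IL-17A WT against untreated WT the count was 4, and it was 9 at 1.5-fold (36.54% of all genes called), 2 at 3-fold (8.37%) and 1 without the 9 genes with near-identical copies (19.16%). In Il17rc KO against IL-17A WT it was 3, with 5 at 1.5-fold (21.77%) and 1 at 3-fold (4.49%). In Il17rd KO against IL-17A WT it was 1, with 4 at 1.5-fold (20.23%), 0 at 3-fold (4.31%) and 2 under library totals (9.88%), where Hspa1a reached a log2 ratio of 1.07. Between the knockouts it was 0, with 2 at 1.5-fold (11.98%). The lower counts at 3-fold follow from the stricter fold. The lower count without the 9 genes follows from leaving out Hspa1a, Hspa1b and Hsp90aa1, which were among the 4 called. The other 23 settings of these counts stayed within 1.5 times the main count. Among them, the count in Il17rc KO against IL-17A WT was 2 with DESeq2 size factors (10.55%) and with upper-quartile factors (10.56%). Under another scaling or with summed copies, 481 ratios of single genes kept their side of the rule and 3 did not. These were Hspa1a above and Trib3 in Il17rc KO against IL-17A WT, at 0.99 with DESeq2 size factors and 0.94 with upper-quartile factors. All 24 class medians with a prior count of 0.5 or 5 stayed within counting error. The scalings moved the all-gene median log2 ratio by 0.08 at most.

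No paired analysis was possible because each group had 1 library, and leaving out a replicate was not possible for the same reason. Variation between cultures is unknown. Depth limits the rarer genes most, such as Ern1 with 405 to 483 counts and Vldlr with 203 to 669 counts.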
